A study of Mus musculus with 30 samples.

Results

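Of the 21073 genes measured in the extensor digitorum longus (EDL), a fast hindlimb muscle of the mouse, 10 were taken as the genes of branched-chain amino acid and glutamine metabolism: BCAT2, BCKDHA, BCKDHB, DBT, BCKDK, GLUL, GPT2, GOT1, GOT2 and AMT. They were chosen by name, and all 10 were found in the table by their gene symbols. Experimental autoimmune encephalomyelitis (EAE), an animal model of multiple sclerosis, was induced in wild-type female SJL mice by immunization with a peptide of the myelin protein PLP in complete Freund's adjuvant (CFA), with no pertussis toxin. Controls were mice that received no immunization (Ctrl) and mice immunized with ovalbumin (OVA) in the same adjuvant, so that the OVA group shares the adjuvant with the EAE group but not the myelin peptide. EDL muscle was taken on day 14, the peak of disease, and on day 40, in chronic remission, from 5 mice per group and day, and RNA-Seq was performed on 30 mice in all. Each mouse was sampled once, so the mice of day 14 and day 40 are different animals, and the sources used here give neither their age nor a batch.

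Muscle is a main site of branched-chain amino acid use. BCAT2 in mitochondria moves the amino group of leucine, isoleucine and valine onto α-ketoglutarate to give glutamate, and the branched-chain ketoacid dehydrogenase complex, built from BCKDHA, BCKDHB, DBT and DLD, then commits the carbon skeletons to oxidation, with the kinase BCKDK switching the complex off. The glutamate can take up ammonia to become glutamine through GLUL, or pass its amino group on to alanine through GPT2 and to aspartate through GOT1 and GOT2, and muscle exports glutamine and alanine to other organs.

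Expression is given as RPKM, reads per kilobase of exon scaled to the mapped reads of each library. This unit accounts for gene length and library size, but not for differences in the make-up of the libraries. Scaling factors by another method (median of ratios) ran from 0.897 to 1.08 over the mice. Groups were compared with limma on log2(RPKM + 0.1). Genes entered a test if either compared group (for interactions, any of the 4) had a mean over 3 RPKM, and a gene was called where the fold change was above 1.5 and the p-value, adjusted over all genes tested, was below 0.05. Fibre markers were mostly of the fast type, which cannot tell the EDL from another fast muscle. The summed level of 10 fast-fibre genes was 55186 to 119553 RPKM in the 30 mice, while that of 7 slow-fibre genes was 1034 to 3049 RPKM. Estimated mapped reads ranged from 18100000 to 31400000 per mouse. Over 9049 expressed genes, 1 unimmunized mouse of day 14 (replicate 1) stood furthest from its group, with a median correlation of 0.961 to the other 4 mice, and all 30 mice had at least this value. Replicate 1 of the OVA mice of day 14 was almost as far from its group, at 0.964. In bulk muscle, fewer cells of a type and less RNA per cell cannot be told apart.

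GLUL and GOT1 were the genes called on day 14, and the 250 bases before their transcription start sites are shown because these promoters belong to the pair of genes that moved. The sequences are from RefSeq on GRCm38.p6, the assembly also known as mm10, and both are written 5′ to 3′ in the direction of transcription. Capitals mark matches, on either strand, to the CCAAT box (searched as these 5 letters), the GC box GGGCGG, the nuclear receptor half-site AGGTCA or the C/EBP-ATF motif TGATGNAA.
GLUL, chr1:153899679-153899928, plus strand: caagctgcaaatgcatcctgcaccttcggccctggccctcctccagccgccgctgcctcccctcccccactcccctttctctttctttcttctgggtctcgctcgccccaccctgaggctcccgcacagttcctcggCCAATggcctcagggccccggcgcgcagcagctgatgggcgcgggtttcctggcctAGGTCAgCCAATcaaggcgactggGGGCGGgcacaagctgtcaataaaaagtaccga
GOT1, chr19:43524606-43524855, minus strand: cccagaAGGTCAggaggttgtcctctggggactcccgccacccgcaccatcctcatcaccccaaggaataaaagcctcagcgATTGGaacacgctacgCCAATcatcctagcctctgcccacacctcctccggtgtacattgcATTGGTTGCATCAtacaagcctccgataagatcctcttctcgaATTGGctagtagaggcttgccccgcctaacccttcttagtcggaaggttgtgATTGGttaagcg

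The GOT1 promoter holds 5 CCAAT boxes, and 1 of them lies directly beside the C/EBP-ATF motif, while the GLUL promoter holds 2 CCAAT boxes and 1 GC box. A promoter sequence was at hand for 9 of the 10 genes, in 11 windows of 250 bases. CCAAT was present in 5 of these 11 windows and in 33.8% of all 32851 mouse windows of the same length, and the C/EBP-ATF motif was in 1 of the 11, that of GOT1, and in 3.45% of all windows. The glucocorticoid half-site AGAACA was in 2 of the 11 windows, those of BCKDK and BCKDHB, against 16.1% of all windows. The forkhead motif TGTTTAC was in none of them, against 3.17% of all. The TATA box TATAAA was in the BCKDK and GOT2 windows and in 12.4% of all. The GC box was in 4 of the 11 windows against 32.7% of all, and the nuclear receptor half-site in 5 of the 11 against 14% of all. These matches describe letters only.

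On day 14, the question was whether EAE changes these genes at the peak of disease and whether the adjuvant alone does so. Against Ctrl, 2 of the 9 genes tested were called, GLUL higher and GOT1 lower, where 26.4% of all genes tested were called. Against OVA, the called genes were again GLUL and GOT1, 2 of 9, where 20.3% of all genes were called. AMT, below 3 RPKM in every day 14 group, was not tested. The share of the 9 genes that was called lies near the share of all genes in both comparisons, so nothing was read from the count itself. The comparisons share the EAE mice and are given side by side.

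GLUL encodes glutamine synthetase, which makes glutamine from glutamate and ammonia. The gene lies at chr1:153899929-153909723 and contains a microRNA gene, Mir8114. In EAE mice on day 14 its level was 222.9, 228.6, 184.0, 226.0 and 232.8 RPKM. In Ctrl mice it was 78.99, 98.32, 75.1, 102.5 and 112.2 RPKM, and in OVA mice 78.75, 71.92, 79.29, 90.96 and 75.45 RPKM. All 5 EAE mice lay above all 10 control mice, with no overlap, while the control groups overlapped each other. The mean was 219 ± 19.8 (SD, n = 5) in EAE against 93.4 ± 15.8 in Ctrl and 79.3 ± 7.17 in OVA. GLUL rose 2.36-fold over Ctrl (log2 fold change 1.24, SE 0.12, limma adjusted p = 2.61e-06) and 2.76-fold over OVA (1.46, SE 0.12, adjusted p = 7.93e-07). The exact two-sided permutation p was 0.00794 in each comparison, the smallest that 5 against 5 mice can give. Without the unimmunized mouse that stood apart, the log2 fold change over Ctrl was 1.18.

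**Figure D1:**
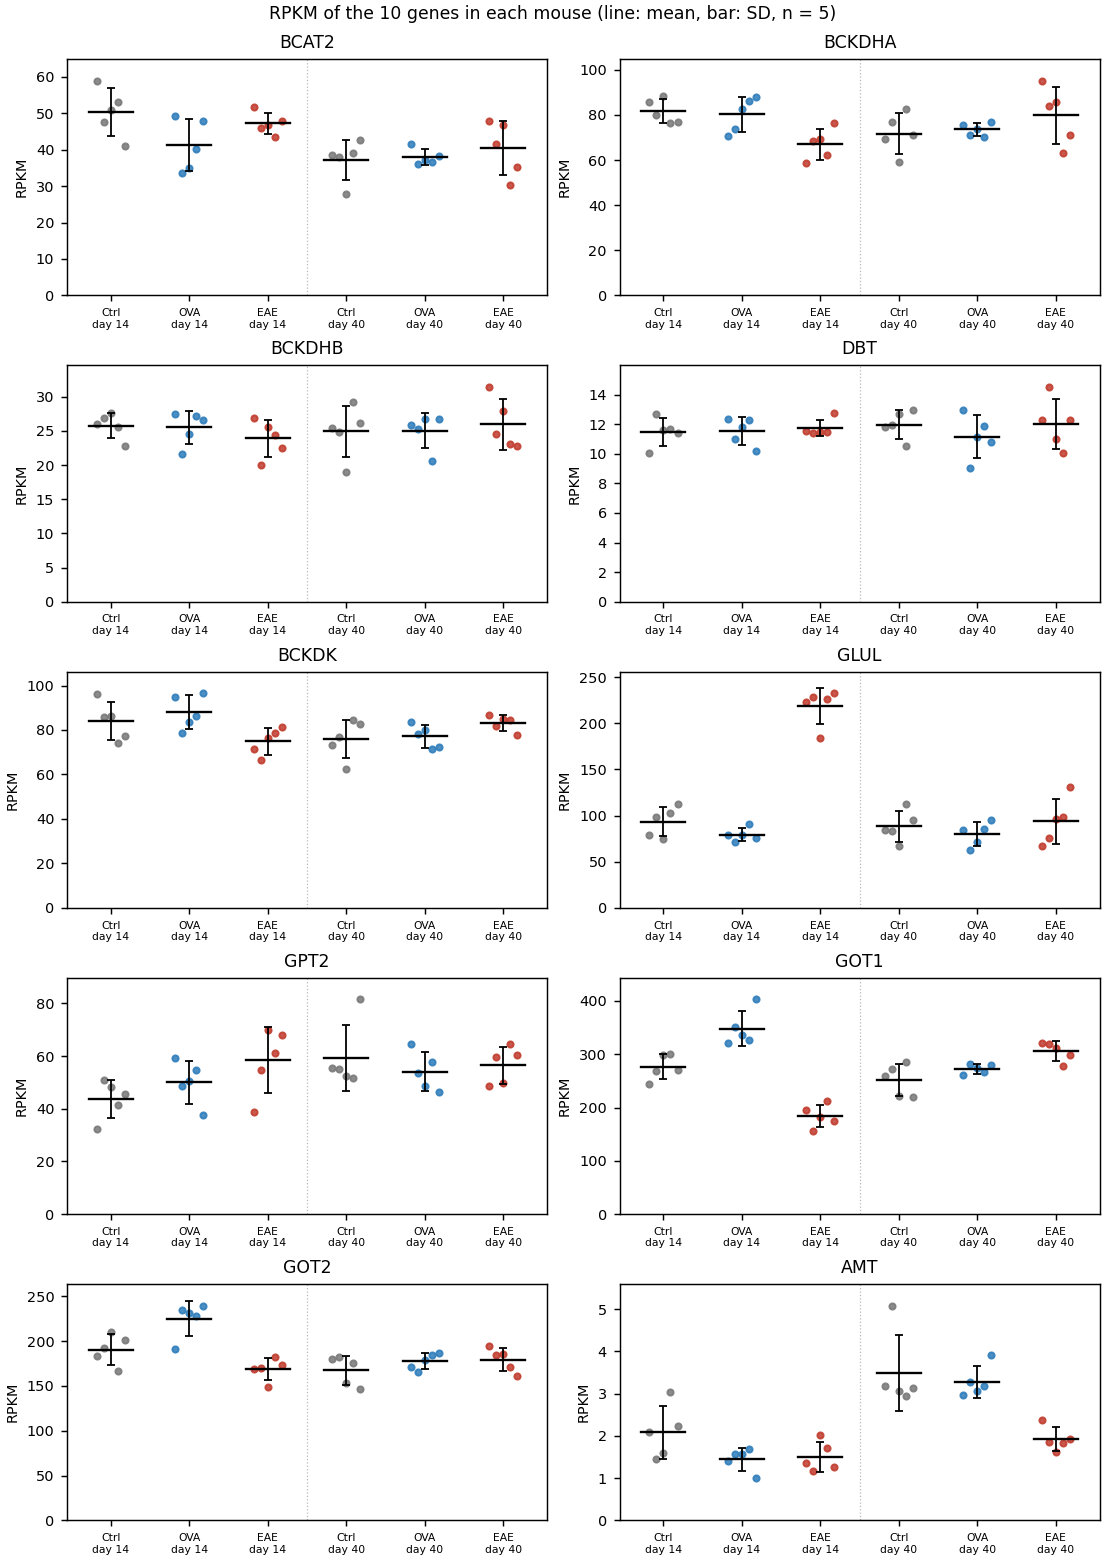
RPKM of each of the 10 genes (vertical axis, linear from 0) in every mouse of the 6 groups (grey Ctrl, blue OVA, red EAE), with a horizontal line at the mean and a bar of 1 SD, n = 5 per group. GLUL of the 5 EAE mice on day 14 sits at 184 to 233 RPKM, above all other mice, and GOT1 of the same mice sits at 156 to 212 RPKM, below all other mice.

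GOT1 and GOT2 are the cytosolic and mitochondrial aspartate aminotransferases, which exchange amino groups between glutamate and aspartate and drive the malate-aspartate shuttle. GOT1 lies at chr19:43499752-43524605. In EAE mice on day 14 it was at 195.8, 156.0, 182.9, 211.9 and 174.2 RPKM. In Ctrl mice it was at 243.7, 268.5, 298.6, 300.6 and 271.3 RPKM, and in OVA mice at 320.6, 352.0, 337.0, 326.7 and 403.2 RPKM. The 3 groups did not overlap: every EAE mouse was below every Ctrl mouse, and every Ctrl mouse was below every OVA mouse. GOT1 fell 1.5-fold against Ctrl (log2 fold change −0.59, SE 0.11, adjusted p = 0.000437, exact permutation p = 0.00794) and 1.89-fold against OVA (−0.92, SE 0.11, adjusted p = 1.29e-05, exact permutation p = 0.00794). The difference from Ctrl was just past the 1.5-fold threshold, and with 1 mouse left out at a time it ranged from −0.64 to −0.53 on the log2 scale. It was under 1.5-fold without Ctrl replicate 3, without Ctrl replicate 4, without EAE replicate 2 and without EAE replicate 5, and the adjusted p was at most 0.00184 throughout.

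GOT2 was lower in EAE on day 14 by less than 1.5-fold. Its mean was 169 ± 12.4 RPKM in EAE, 191 ± 16.9 in Ctrl and 225 ± 19.2 in OVA. The log2 difference from OVA was −0.41 (adjusted p = 0.00383), and all 5 EAE mice, at 149 to 182 RPKM, lay below the OVA mice, at 192 to 240 RPKM. That from Ctrl was −0.17 (adjusted p = 0.152), with overlap. The ratio of GOT1 to GOT2 in a mouse was 0.919 to 1.23 in EAE against 1.33 to 1.81 in Ctrl and 1.43 to 1.68 in OVA, so these ranges did not overlap. A processed copy of GOT2, Got2-ps1, is annotated elsewhere in the genome, and reads from it could be counted with GOT2.

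GPT2 is the mitochondrial alanine aminotransferase, which passes the amino group of glutamate to pyruvate to make alanine. On day 14 it was at 38.65, 54.85, 69.89, 61.35 and 67.83 RPKM in EAE mice and at 32.4, 50.82, 48.1, 41.3 and 45.58 RPKM in Ctrl mice. In EAE, 4 of 5 mice exceeded the highest Ctrl mouse and the fifth lay among them. The log2 difference was 0.41 (SE 0.17, 95% CI 0.048 to 0.769) and did not pass the test (adjusted p = 0.0578, exact permutation p = 0.0714). Against OVA, with 50.1 ± 8.19 RPKM, it was 0.21 (adjusted p = 0.345). GPT, the cytosolic enzyme for the same reaction, fell from 22.3 ± 3.44 RPKM in Ctrl and 23.6 ± 2.49 in OVA to 12 ± 1.58 in EAE (log2 fold changes −0.89, adjusted p = 5.63e-05, and −0.98, adjusted p = 2.87e-05). The ratio of GPT2 to GPT on day 14 was 3.14 to 7.33 in EAE mice against 1.29 to 2.67 in Ctrl and 1.36 to 2.62 in OVA mice. On day 40 it was 2.85 to 7.4 in Ctrl, 2.21 to 3.86 in OVA and 2.16 to 3.93 in EAE mice. Control mice of day 40 thus overlapped the EAE mice of day 14, so a high ratio was not particular to EAE.

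**Figure D2:**
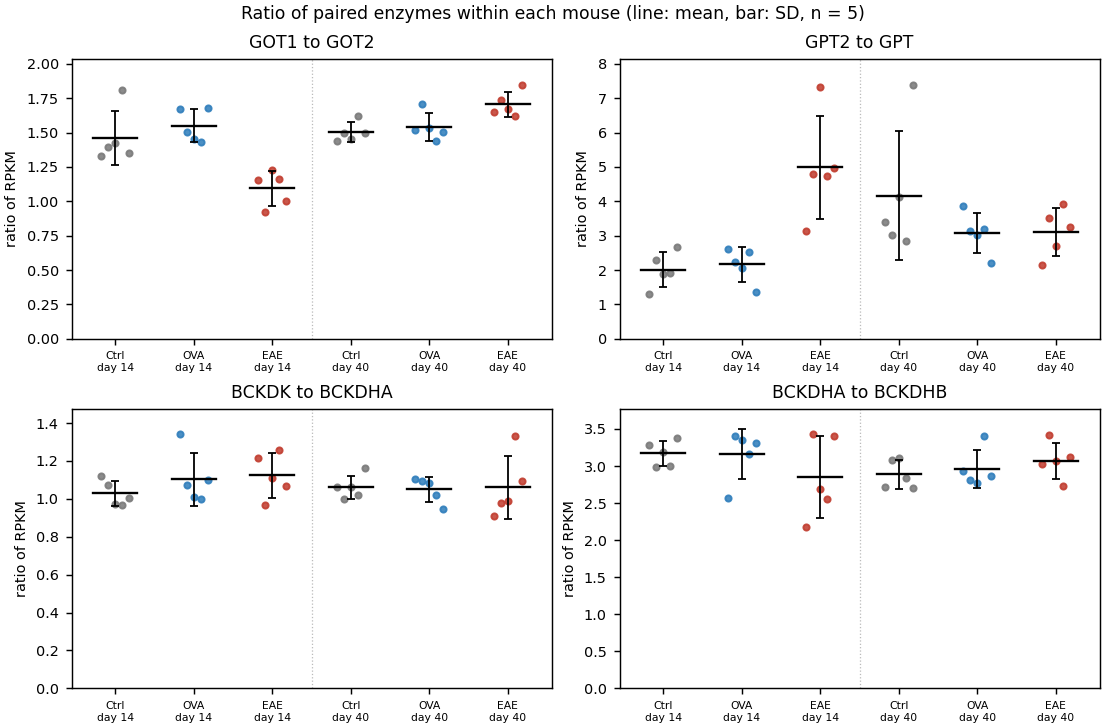
Ratio of the RPKM of 2 enzymes within each mouse (vertical axis, linear from 0) for GOT1 to GOT2, GPT2 to GPT, BCKDK to BCKDHA and BCKDHA to BCKDHB in the 6 groups, with the mean and 1 SD (n = 5). On day 14 the EAE mice are apart from both control groups in GOT1 to GOT2 (0.919 to 1.23) and GPT2 to GPT (3.14 to 7.33) and overlap them in BCKDK to BCKDHA (mean 1.12 ± 0.117 against 1.03 ± 0.0662 in Ctrl) and BCKDHA to BCKDHB (2.85 ± 0.55 against 3.17 ± 0.173).

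The genes of branched-chain amino acid catabolism itself showed differences under 1.5-fold on day 14. BCAT2, the mitochondrial branched-chain aminotransferase, was at 47.3 ± 2.95 RPKM in EAE, 50.4 ± 6.62 in Ctrl and 41.2 ± 7.09 in OVA (log2 differences −0.08, 95% CI −0.344 to 0.176, and 0.21, 95% CI −0.0479 to 0.472). A long noncoding RNA gene, 0610005C13Rik, overlaps it, and the sources used here do not state whether counting used strand. BCAT1, the cytosolic form, was at 0.261 ± 0.103 RPKM or less in every group, far below BCAT2.

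BCKDHA, the E1 alpha subunit on which the dehydrogenase is switched off by phosphorylation, had the clearest difference of the complex. Its level in EAE mice was 58.61, 68.52, 69.13, 62.43 and 76.4 RPKM against 85.63, 80.16, 88.42, 76.59 and 77.04 RPKM in Ctrl mice. The highest EAE mouse lay just under the lowest Ctrl mouse. The log2 difference was −0.29 (95% CI −0.494 to −0.0794, adjusted p = 0.0248), and against OVA, where the mice overlapped, −0.26 (adjusted p = 0.0458). Both were below the 1.5-fold threshold.

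BCKDHB, the E1 beta subunit, was at 23.9 ± 2.75 RPKM in EAE, 25.8 ± 1.86 in Ctrl and 25.5 ± 2.45 in OVA, and its groups overlapped (log2 difference from Ctrl −0.11, 95% CI −0.329 to 0.102). DBT, the E2 core, was at 11.7 ± 0.555, 11.5 ± 0.938 and 11.5 ± 0.938 RPKM, with a log2 difference from Ctrl of 0.03 (95% CI −0.148 to 0.218), the narrowest bound among the 9 genes. The pseudogene Gm4596 overlaps DBT, and Gm46124 and Gm29163 overlap BCKDHB. DLD, the E3 subunit that this complex shares with other dehydrogenases, was at 143 ± 19.1 RPKM in EAE, 130 ± 33.1 in Ctrl and 182 ± 13 in OVA, and it was not called. Per length, BCKDHA was present at 2.17 to 3.43 times the level of BCKDHB in EAE mice on day 14, and the mean ratio was 2.85 to 3.17 in the 6 groups.

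BCKDK, the kinase that inactivates the complex, was at 74.9 ± 6.03 RPKM in EAE, 84 ± 8.54 in Ctrl and 88 ± 7.61 in OVA (log2 differences −0.16, adjusted p = 0.179, and −0.23, adjusted p = 0.0725). PPM1K, the phosphatase that reactivates it, was at 2.93 ± 0.258, 3.22 ± 0.394 and 3.26 ± 0.902 RPKM. The ratio of BCKDK to BCKDHA stayed between group means of 1.03 and 1.12 in all 6 groups. SLC25A44, the mitochondrial carrier of branched-chain amino acids, was at 10.7 ± 1.69 RPKM in EAE, 9.42 ± 0.569 in Ctrl and 9.05 ± 1.59 in OVA, and was not called. KLF15, a transcription factor known to activate branched-chain amino acid catabolism in muscle, was at 18.7 ± 3.17, 14.7 ± 2.93 and 14.4 ± 2.5 RPKM (log2 difference from Ctrl 0.35, adjusted p = 0.0815).

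**Figure D3:**
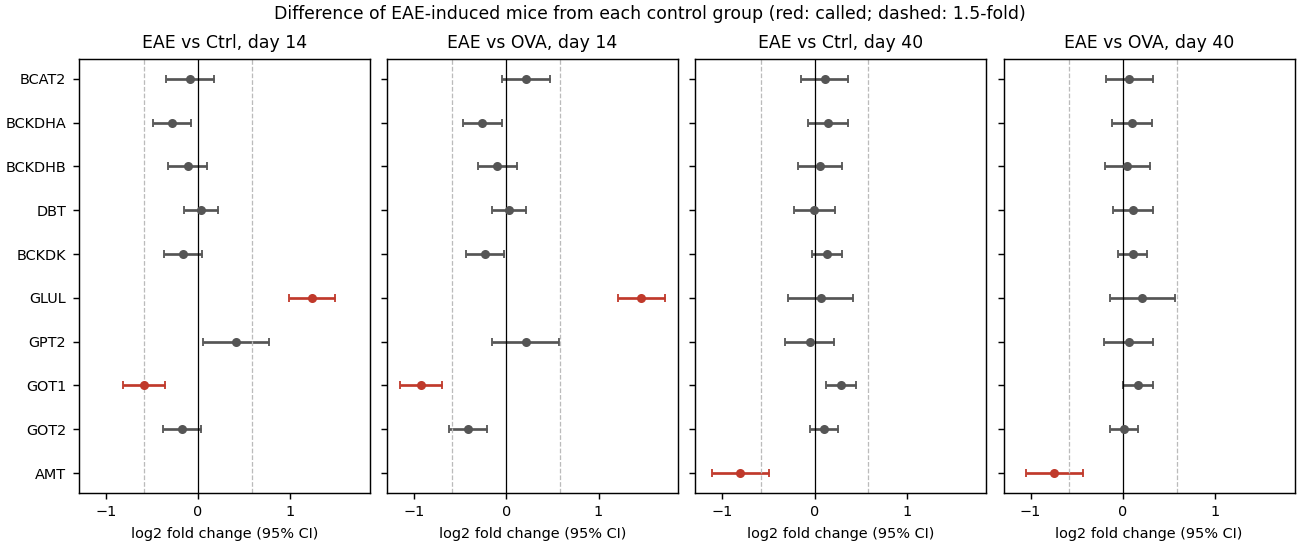
Log2 fold change with its 95% confidence interval (horizontal axis) for the 10 genes in the 4 comparisons of EAE mice with controls, from limma (n = 5 per group), where red marks called genes and dashed lines mark 1.5-fold. GLUL (1.24 and 1.46) and GOT1 (−0.59 and −0.92) are red on day 14, and AMT, not tested on day 14, is red on day 40 (−0.80 and −0.74).

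OVA and Ctrl mice differed by at most 0.33 log2 units in the 9 genes tested on day 14. In OVA against Ctrl mice on day 14, 0 of the 9 genes tested were called by limma, where 0.142% of all genes were called. Of the 9, 3 had an unadjusted p below 0.05: BCAT2 (log2 difference −0.30), GOT1 (0.33) and GOT2 (0.24). Of all 8471 genes tested, 821 (9.69%) had one. GOT1 was higher in every OVA mouse than in every Ctrl mouse (exact permutation p = 0.00794), the opposite side from the EAE mice, but the adjusted p was 0.326. The exact permutation p, not adjusted, was 0.0317 for GOT2 and 0.0714 for BCAT2. None of the 9 differences reached 1.5-fold, so with that threshold no gene could pass the permutation test, and nothing was read from it.

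Markers of other cells also differed on day 14, and their part in the results above was not tested. The summed level of 10 macrophage markers was 154 to 349 RPKM in EAE mice, 333 to 493 in Ctrl and 311 to 484 in OVA, and 6 of the 9 markers tested were lower in EAE against Ctrl. That of 10 endothelial markers was 119 to 159, 144 to 194 and 128 to 202 RPKM, with 4 of 10 lower against Ctrl. That of 6 erythrocyte markers was 26.5 to 189, 189 to 684 and 475 to 1586 RPKM, with 4 of 4 tested lower. Adipocyte markers summed to 300 to 458, 400 to 626 and 458 to 713 RPKM over 8 genes, with 1 of 5 tested lower against OVA. The fast-fibre sum was 55186 to 73158 RPKM in EAE against 77751 to 119553 in Ctrl and 71011 to 107402 in OVA, with 2 of 10 genes lower in both comparisons. The slow-fibre sum was 1034 to 1795, 1758 to 2930 and 1806 to 2823 RPKM, with 3 of 7 genes lower. For comparison, 11.8% of all genes tested were called lower against Ctrl and 9.28% against OVA. The counts of 1 of 5 and 2 of 10 were not read as a change of a cell type. No listed marker was at 0 in all mice. Neutrophil markers, 10 genes, summed to 219 to 405 RPKM in EAE, 4.23 to 11.2 in Ctrl and 69.6 to 238 in OVA. Against Ctrl, 5 of 5 tested were called higher in EAE and in OVA mice, where 14.6% and 0.0944% of all genes tested were. No listed neutrophil marker had a mean above 3 RPKM in Ctrl, so the 5 passed the filter only through the immunized group. They could be called only as higher. Of the 5 tested in EAE against OVA, 1 was called higher and none lower, with a median log2 fold change of −0.86.

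The genes around these 10 were taken from 6 lists of the same pathways, 74 genes in all, which share no gene with the 10. On day 14, 13 of the 61 tested were called against Ctrl (21.3%, with 7 higher and 6 lower) and 12 of 61 against OVA (19.7%, with 6 higher and 6 lower), near the shares of all genes.

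Among amino acid transporters, 2 of 11 tested were higher against Ctrl and 4 of 11 against OVA, and none was called lower, where 14.6% and 11% of all genes tested were called higher. SLC7A5 and SLC7A6 passed the filter through the EAE group alone, and so did SLC7A8 in the comparison with OVA, so they could be called only as higher and the counts are partly set by the filter. SLC7A5, the light chain of the leucine transporter LAT1, was at 13.64, 18.91, 6.129, 6.374 and 12.68 RPKM in EAE mice and at no more than 2.398 RPKM in any control mouse of that day. It rose 5.1-fold over Ctrl (log2 fold change 2.35, SE 0.27, adjusted p = 1.01e-05) and 5.54-fold over OVA (2.47, adjusted p = 8.59e-06). The EAE mice spread widely among themselves, yet each lay above both control groups. SLC38A2, which carries glutamine and other small neutral amino acids into cells, was at 49.7 ± 19.4 RPKM in EAE against 14.2 ± 4.71 in Ctrl and 19.4 ± 2.15 in OVA (log2 fold changes 1.80 and 1.28, adjusted p = 7.16e-05 and 0.00134). SLC7A8, the LAT2 light chain, rose against OVA (0.80, adjusted p = 0.0011) and was not called against Ctrl (0.30, adjusted p = 0.132). SLC7A6, named after its value was seen, rose against OVA (0.65, adjusted p = 0.00493) and was under 1.5-fold against Ctrl (0.52, adjusted p = 0.0143). Whether these differences from OVA and from Ctrl differ was not tested. The median log2 fold change of the tested transporters was 0.30 against Ctrl, where that of all genes was 0.11.

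In the malate-aspartate shuttle, to which GOT1 and GOT2 belong, 3 of the 5 other genes tested were lower in both comparisons and none was called higher. Of all genes tested, 11.8% were called lower against Ctrl and 9.28% against OVA. They were MDH1 and MDH2, the cytosolic and mitochondrial malate dehydrogenases, and SLC25A11, the malate and oxoglutarate carrier. MDH1 was at 244.7, 168.7, 213.7, 247.7 and 191.9 RPKM in EAE mice and at 374.7 to 495.5 RPKM in Ctrl mice, a 2.11-fold fall (log2 fold change −1.08, SE 0.13, adjusted p = 1.23e-05). MDH2 was at 491 ± 55.3 RPKM against 982 ± 69.5 (−1.01, adjusted p = 6.39e-06), and SLC25A11 at 131 ± 16.5 against 244 ± 21.6 (−0.90, adjusted p = 2.96e-05). The EAE and Ctrl ranges of the 3 genes did not overlap, and against OVA the log2 fold changes were −1.28, −1.01 and −1.09. The median over the 5 genes was −0.90, where that of all genes was 0.11.

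Of the 19 other branched-chain catabolic enzymes tested, 3 were called against Ctrl and 1 against OVA, where 26.4% and 20.3% of all genes were called. AUH, an enzyme of leucine breakdown, fell (41.5 ± 6.91 RPKM in EAE, 61.9 ± 5.56 in Ctrl, 69.2 ± 6.88 in OVA, log2 fold changes −0.59 and −0.75). The fall against Ctrl was under 1.5-fold without any 1 of Ctrl replicates 2, 3 and 4 or EAE replicates 2 and 5, while the adjusted p stayed at or below 0.00442. ACADSB, which acts on isoleucine, rose against Ctrl (47.3 ± 3.14 against 29.4 ± 3.3, 0.69, adjusted p = 9.93e-05), as did ALDH6A1 of valine breakdown (36.5 ± 4.27 against 21.2 ± 8.7, 0.94, adjusted p = 0.0224). The unimmunized mouse that stood apart had only 6.167 RPKM of ALDH6A1, and without it the log2 fold change was 0.55, under 1.5-fold. Without EAE replicate 2 the adjusted p was 0.0532. Against OVA neither ACADSB nor ALDH6A1 was called. ACADSB differed from OVA by 0.49 (adjusted p = 0.00188), under 1.5-fold, and ALDH6A1 by 0.40 (adjusted p = 0.335), with overlap. The enzymes of the list split between the directions, with 9 of 19 above 0 and a median of −0.02.

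Of 11 further glutamate and glutamine enzymes tested, 1 was higher and 1 lower in both comparisons. Against Ctrl and OVA, 14.6% and 11% of all genes tested were called higher and 11.8% and 9.28% lower. PSAT1, the glutamate-using aminotransferase of serine synthesis, rose from 1.7 ± 0.193 RPKM in Ctrl and 1.57 ± 0.193 in OVA to 3.72 ± 0.876 in EAE (log2 fold changes 1.06 and 1.17, adjusted p = 0.000155 and 7.74e-05), and GPT is the one that fell. PSAT1 passed the filter through the EAE group alone, so it could be called only as higher. Of 7 glycine cleavage and one-carbon genes tested, 0 were called by limma on day 14, with 3 at an unadjusted p below 0.05 against Ctrl and 1 against OVA. Such a p was found for 55.4% and 47.9% of all genes tested.

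Among 8 transcriptional regulators, FOXO1 and FOXO3, factors known to drive muscle atrophy genes, were higher against Ctrl, and ESRRA, a regulator of oxidative metabolism, was lower. FOXO1 was at 12 ± 5.49 RPKM in EAE, 6.06 ± 0.471 in Ctrl and 6.51 ± 0.633 in OVA (log2 fold changes 0.87, adjusted p = 0.00331, and 0.77, adjusted p = 0.0088), and without EAE replicate 5 the difference from OVA was 0.55, under 1.5-fold. FOXO3 was at 4.66 ± 1.72 RPKM in EAE, 1.68 ± 0.975 in Ctrl and 2.98 ± 2.02 in OVA, and was not called against OVA. Against Ctrl, it rose (log2 fold change 1.62, adjusted p = 0.024), with overlap. It passed the filter through the EAE group alone, and without the unimmunized mouse that stood apart the adjusted p was 0.0638. It was 0.0639 without EAE replicate 2. ESRRA was at 37.2 ± 5.65 RPKM in EAE, 68.1 ± 8.42 in Ctrl and 69 ± 11.2 in OVA (−0.88 and −0.89, adjusted p = 0.000112 and 0.000115).

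**Figure D4:**
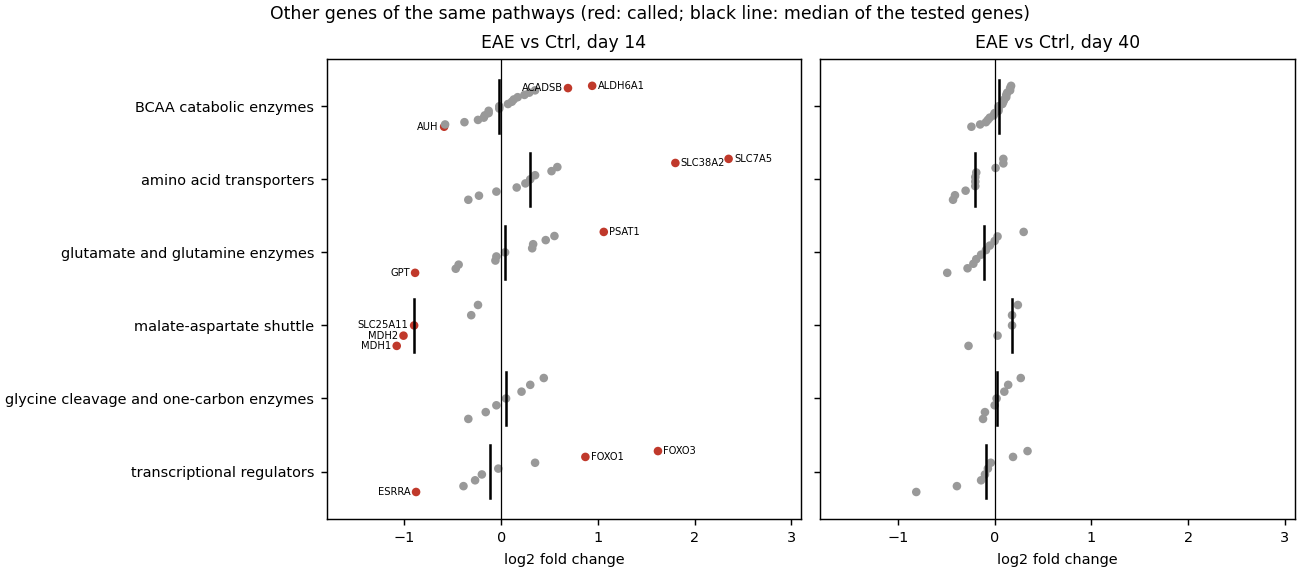
Log2 fold change of EAE over Ctrl mice (horizontal axis) on day 14 and day 40 for each tested gene of the 6 lists, from limma (n = 5 per group), where red marks called genes and the black line is the median of the list. On day 14, 13 genes are red, from MDH1 at −1.08 to SLC7A5 at 2.35, and on day 40 none is.

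On day 40, all 10 genes were tested, AMT because its mean passed 3 RPKM in the control groups. Against Ctrl, 1 of 10 was called, AMT, lower in EAE, where 0.46% of all genes were called. Against OVA it was again AMT, 1 of 10, where 0.209% of all genes were called. In OVA against Ctrl, 0 of 10 were called by limma, where 0% of all genes were called, and none of the 10 had an unadjusted p below 0.05, while 272 of 8706 genes did. Of the 74 pathway genes, 0 were called in any of the 3 comparisons of day 40 by limma, with 14 of 59 at an unadjusted p below 0.05 in EAE against Ctrl, 6 of 58 in EAE against OVA and 1 of 58 in OVA against Ctrl. Over all genes tested, 2423 of 8691 (27.9%) and 1500 of 8598 (17.4%) had an unadjusted p below 0.05 in the comparisons of EAE with Ctrl and with OVA.

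AMT is the aminomethyltransferase of the glycine cleavage system and had the lowest level of the 10 genes. On day 40 it was at 2.386, 1.863, 1.624, 1.836 and 1.915 RPKM in EAE mice. In Ctrl mice it was at 3.192, 5.088, 3.052, 2.95 and 3.137 RPKM, and in OVA mice at 2.959, 3.273, 3.062, 3.182 and 3.925 RPKM. All EAE mice lay below all control mice, while Ctrl and OVA overlapped. AMT was 1.75-fold lower than in Ctrl (log2 fold change −0.80, SE 0.15, adjusted p = 0.0196, exact permutation p = 0.00794) and 1.67-fold lower than in OVA (−0.74, SE 0.15, adjusted p = 0.0406, exact permutation p = 0.00794). Both calls depended on the settings: without EAE replicate 3 the adjusted p against Ctrl was 0.0575, and against OVA the call was kept only without OVA replicate 1 and without EAE replicate 1 of the 10 fits that each left out a mouse, with an adjusted p of up to 0.135. As AMT was tested only through the groups in which it is high, its count is not read as a result about the 10 genes. About 40 reads lie behind the lowest value of AMT in any mouse. GLDC, the decarboxylase of the same system, was at 0.0495 RPKM or less in every group mean.

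GLUL on day 40 was at 67.52, 75.78, 96.44, 98.12 and 131 RPKM in EAE mice, against 67.3 to 113 RPKM in Ctrl and 62.7 to 95.5 RPKM in OVA. Of the 5 EAE mice, 4 lay within the Ctrl range and the highest lay above both ranges. The log2 differences were 0.06 (95% CI −0.286 to 0.416) and 0.21 (95% CI −0.14 to 0.563), so a change of the size seen on day 14 lies outside both intervals. GOT1 on day 40 was at 321.4, 319.9, 311.4, 277.7 and 299 RPKM in EAE mice, against 219 to 286 RPKM in Ctrl and 261 to 282 RPKM in OVA. In EAE, 4 of 5 mice exceeded all control mice. The log2 difference was 0.29 from Ctrl (95% CI 0.129 to 0.446, adjusted p = 0.052, exact permutation p = 0.0159) and 0.16 from OVA (adjusted p = 0.271), so neither passed the test. The ratio of GOT1 to GOT2 was 1.62 to 1.85 in EAE mice, 1.44 to 1.62 in Ctrl and 1.44 to 1.71 in OVA mice, ranges that met or overlapped. BCKDK, GOT2, BCKDHA, BCAT2, BCKDHB, DBT and GPT2 had log2 differences from Ctrl between −0.05 and 0.15, with adjusted p-values of 0.243 to 0.992.

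Whether the EAE effect differed between day 14 and day 40 was tested by an interaction term fitted to all 30 mice. Relative to Ctrl, 2 of 10 genes were called, GLUL and GOT1, where 32.7% of all genes were called. Relative to OVA, 3 of 10 were called, GLUL, GOT1 and AMT, where 21.8% of all genes were called. AMT passed the filter here only through the OVA mice of day 40, in which it is high. The GLUL difference of EAE from Ctrl was 1.17 log2 units smaller on day 40 than on day 14 (interaction −1.17, SE 0.21, adjusted p = 8.96e-05, exact permutation p = 0.00957), and that from OVA was −1.25 (adjusted p = 5.53e-05). For GOT1 the interactions were 0.88 (SE 0.12, adjusted p = 4.44e-06, exact permutation p = 6.3e-05) and 1.08 (adjusted p = 3.1e-07). The median of all genes in these interactions was itself −0.15 and −0.16, and −0.02 and −0.04 after another scaling (median of ratios), which left both genes called. The GOT1 interactions were thus further from the median of all genes than from 0, and those of GLUL nearer to it. The interactions of MDH1 (1.26 and 1.35), MDH2 (1.24 and 1.17) and SLC25A11 (1.08 and 1.20) had the same sign as that of GOT1, and those of SLC7A5 (−1.97 relative to OVA) and SLC38A2 (−2.21 and −1.55) the same sign as that of GLUL, and all of these were called. SLC7A5 had a mean above 3 RPKM only in EAE mice on day 14. The filter thus favoured a negative interaction for SLC7A5, and nothing was read from its sign.

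Between the days within a group, different mice are compared, and day, age and any difference in handling cannot be told apart. In EAE mice, 2 of 9 genes were called, where 21.1% of all genes were called: GLUL was lower on day 40 (log2 fold change −1.26, adjusted p = 1.15e-07) and GOT1 higher (0.74, adjusted p = 1.14e-07). In OVA mice, 1 of 10 was called, AMT, higher on day 40 (1.14, adjusted p = 0.000137), where 3.97% of all genes were called. In Ctrl mice it was again AMT, 1 of 10 (0.73, adjusted p = 0.00664), where 9.37% of all genes were called. AMT in EAE mice, at 1.51 ± 0.352 RPKM on day 14 and 1.93 ± 0.28 on day 40, was under the filter, and its difference was 0.35 (exact permutation p = 0.0794). In OVA and in Ctrl mice AMT passed the filter only through the day 40 group, in which it is high, so these counts are not read as a result about the 10 genes. GOT1 and GOT2 of OVA mice had log2 differences, day 40 minus day 14, of −0.35 (adjusted p = 0.0126) and −0.34 (adjusted p = 0.00858), without overlap and under 1.5-fold, and with quantile normalization these were −0.12 (adjusted p = 0.462) and −0.15 (adjusted p = 0.394). GPT2 of Ctrl mice had one of 0.44 (adjusted p = 0.0348, and 0.0857 with median-of-ratios scaling), also without overlap and under 1.5-fold. GLUL and GOT1 were not called between the days in unimmunized mice, with log2 differences of −0.08 and −0.14.

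Ordered by group mean, GLUL ran from EAE on day 14 (219 RPKM) through EAE on day 40 (93.8), Ctrl on day 14 (93.4), Ctrl on day 40 (88.5) and OVA on day 40 (79.7) to OVA on day 14 (79.3), and only the first step separated neighbours without overlap. GOT1 ran from OVA on day 14 (348) through EAE on day 40 (306), Ctrl on day 14 (277), OVA on day 40 (273) and Ctrl on day 40 (252) to EAE on day 14 (184), and only the last step separated neighbours without overlap. In the other 8 genes every pair of neighbours overlapped, and the highest group mean was 1.08 times the lowest in DBT, 1.09 in BCKDHB, 1.17 in BCKDK, 1.22 in BCKDHA, 1.34 in GOT2, 1.35 in BCAT2, 1.36 in GPT2 and 2.41 in AMT.

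For each of the 10 genes, the genes with the most similar pattern over the 30 mice were found by Pearson's r among 9049 expressed genes, as a description of mice that share the same groups. GOT1 was closest to ATP5A1 and ATP5B, subunits of the mitochondrial ATP synthase (r = 0.94 for both), and to MDH1 (0.93). GLUL was closest to CPNE2, MYH14 and TEKT1 (0.91 for each). BCKDHA was closest to PDK2, a kinase of the related pyruvate dehydrogenase complex (0.86), and GOT2 to DLST, the E2 core of the oxoglutarate dehydrogenase complex (0.85). BCKDK was closest to RTN2 (0.84), BCAT2 to RNASEH2A (0.89), BCKDHB to LAMTOR5 (0.79), GPT2 to STAT5B (0.76) and AMT to NXF1 (0.94). DBT, which hardly varied between groups, had the weakest likeness, 0.58 with OXSM.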

How the data were processed

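The authors aligned paired-end poly(A) RNA-Seq reads to mm10 with Subread, counted reads on RefSeq transcripts with featureCounts and computed RPKM, and they deposited 1 table of 21073 genes and 30 mice. The deposited values are log2(RPKM + 1), with 0.0001 for a gene without a read (25.8% of values). This scale was read from the values: RPKM times exon length in kilobases summed to between 1070000 and 1080000 per mouse after conversion from log2, and to at most 137000 without it. Values were converted back to RPKM. The authors called genes with edgeR on counts, which were not used here. Instead, limma 3.58.1 in R 4.3.3 (lmFit, eBayes with trend) was run on log2(RPKM + 0.1), a scale that understates the change of low genes, with Benjamini-Hochberg adjustment. The 15 mice of a day entered 1 model, and interactions and comparisons between days used all 30 mice. The filter (mean above 3 RPKM in at least 1 group) and thresholds (fold change above 1.5, adjusted p below 0.05) follow the study's methods. On simulated data for EAE against Ctrl on day 14, 188 of 200 changed genes were called, with 8 false calls among 8456 genes tested. The changed genes were drawn from well-expressed genes, and all were given a change larger than the threshold. The simulation therefore cannot tell how well low genes or changes near 1.5-fold are called. Exact permutation tests were two-sided, over 252 arrangements of 5 against 5 mice and 63504 for interactions.

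Mapped reads per mouse were estimated from the spacing of low RPKM values and exon lengths (GENCODE M21, median 21500000). Coordinates are from RefSeq on GRCm38.p6. The 10 genes, the pathway and marker lists and the tests were chosen with earlier results of these data known. Named genes are the 10, in each list and same-day comparison up to 3 called genes per direction by size of change, partner enzymes fixed by name, and the 3 most alike genes per member, of which the text gives 1 to 3. The labels do not say that a replicate number links mice. Deviations of same-number mice correlated above 0.1 in 0 to 4 of 5 pairs, depending on the 2 groups, with r from −0.71 to 0.71. This check cannot tell whether the numbers mark a batch. P-values set the difference between groups against the spread between mice. One partner gene is not reported here.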

Additional observations from a re-analysis of the deposited data

Results flagged for a closer look

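In 7 of 60 sets of 5 mice (10 genes in 6 groups), 1 mouse lay far from the other 4 by Dixon's criterion on the log2 scale, which chance does in about 1 in 20 sets. GLUL in EAE on day 14 had its lowest mouse, replicate 3, at 184 RPKM, with the others at 223 to 233, and that mouse was still above every control mouse. AMT in Ctrl on day 40 had replicate 2 at 5.09 RPKM, with the others at 2.95 to 3.19. GPT2 in Ctrl on day 40 had replicate 5 at 81.6 RPKM, with the others at 51.5 to 55.5. BCAT2 in Ctrl on day 40 had replicate 3 at 28 RPKM, with the others at 38.1 to 42.6. BCKDHB in OVA on day 40 had replicate 4 at 20.6 RPKM, with the others at 25.3 to 26.7. GOT2 in OVA on day 14 had replicate 1 at 192 RPKM, with the others at 229 to 240. DBT in EAE on day 14 had replicate 5 at 12.7 RPKM, with the others at 11.4 to 11.5.

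The effect of EAE differed between day 14 and day 40, by the interaction test of limma with an adjusted p below 0.05, for 5 genes relative to Ctrl and 6 relative to OVA. Of all genes tested, 48.6% and 35.1% had such a value, so nothing was read from these counts, and AMT passed the filter only through the controls of day 40, in which it is high. Day 40 minus day 14, the log2 effect relative to Ctrl changed by −1.17 for GLUL, 0.88 for GOT1, 0.44 for BCKDHA, 0.30 for BCKDK and 0.28 for GOT2. Relative to OVA it changed by −1.25 for GLUL, 1.08 for GOT1, 0.43 for GOT2, 0.36 for BCKDHA, 0.34 for BCKDK and −0.79 for AMT. The EAE mice are the same in the comparisons with Ctrl and with OVA, so these are not independent of each other. BCKDHA, BCKDK and GOT2 differed by less than 1.5-fold, and several of these values did not hold under other settings. That of GOT2 relative to Ctrl was 0.14 (adjusted p = 0.449) with quantile normalization, and its adjusted p was 0.0644 with a replicate block, 0.0663 without the filter and 0.0509 with a pseudocount of 1. The adjusted p of GOT2 relative to OVA was 0.0803 with quantile normalization. That of BCKDK relative to Ctrl was 0.051 without the filter. That of BCKDHA relative to OVA was 0.0581 with a replicate block and 0.066 without the filter.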

How the results depend on the processing

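GLUL and GOT1 against OVA on day 14 were called under all 18 alternatives, GLUL against Ctrl likewise, and no called value changed sign under any alternative run. Some counts over 9 or 10 genes changed by over 1.5 times. With no fold-change threshold, 4 of 9 genes were called in EAE against OVA on day 14, where 39.1% of all genes were. In the interactions with Ctrl and OVA, 5 and 6 of 10 were called (48.6% and 35.1% of all genes). Between the days, 3 of 10 were called in OVA and in Ctrl mice (9.32% and 31.5% of all genes). AMT accounts for the others: its call against Ctrl on day 40 was lost (0 genes called) with quantile normalization, in 1 model of all 30 mice and in the 10 mice compared alone, and its call against OVA was lost (0) with quantile normalization, median-of-ratios scaling, a pseudocount of 1, no filter and all 30 mice. Between the days in Ctrl mice its call was lost (0) with quantile normalization and a pseudocount of 1. Its interaction relative to OVA was called in 25 of 26 alternatives, all but a pseudocount of 1. With a replicate block both AMT calls of day 40 were lost (0 of 10), and the block changed no other count of these genes by over 1.5 times. Each mouse was sampled once, so the numbers mark no shared animal, and whether they mark a batch is not known. The cause of these losses was not tested.

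Leaving out 1 mouse at a time gave 1 to 2 called genes in EAE against Ctrl on day 14, 2 against OVA, 0 to 1 in EAE against Ctrl and against OVA on day 40, and 2 to 3 (GPT2 added without EAE replicate 1 of day 14) and 3 in the interactions. The pathway genes were recounted under the same alternatives, a choice made after the data were seen. With no fold-change threshold, 25 of 61 were called against Ctrl and 27 of 61 against OVA on day 14. On day 40, 3 of 59 were called against Ctrl. The shares of all genes under that rule were 47.8%, 39.1% and 2.63%. Leaving out 1 mouse, with the threshold kept, gave 10 to 16, 11 to 13 and 0 to 1. Of 2010 values of single genes under alternatives, 26 lost a call and 15 gained one. The other 1969 had the same status as in the main fit, which includes values called in neither. They are thus no measure of how well the calls held. Counting error matters most for AMT, with about 40 reads in the lowest mouse.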

Other observations

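BCKDHA, BCKDK and GOT2 had interactions with day of the same sign as GOT1, although under 1.5-fold and, for some, above an adjusted p of 0.05 under other settings. The EAE means were below both control means on day 14 (BCKDHA 67 against 81.6 and 80.2 RPKM, BCKDK 74.9 against 84 and 88 RPKM) and above them on day 40 (79.8 against 71.7 and 73.6 RPKM, and 83.1 against 76 and 77.2 RPKM). GOT2 was below both on day 14 (169 against 191 and 225 RPKM) and above both on day 40 (179 against 167 and 177 RPKM). On day 40 alone none of these differences passed the test. BCAT2, which acts one step before BCKDHA, had interactions of 0.19 (95% CI −0.169 to 0.554) and −0.14 (95% CI −0.502 to 0.221), which did not pass the test.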
